A study of Sus scrofa with 19 samples.

Results

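The immediate-early transcription factors FOS, FOSB, JUN, JUNB, EGR1, ATF3, IER2, NR4A1, MYC and KLF4 were followed through left ventricular (LV) tissue of pigs with different forms of cardiac remodeling. These 10 genes, of 25879 genes counted, were given as a list of symbols. By symbol, 8 of them were found in the gene table of the authors, and the rows of JUN and IER2, which carry no symbol there, were found by their Ensembl identifiers through a gene name table. All 10 passed the low-count filter. Immediate-early genes are transcribed within minutes of a stimulus such as a growth factor, stretch, ischemia or tissue handling, because the factors that switch them on are already present in the cell and need only be phosphorylated. Their transcripts are short-lived, and most of their proteins are transcription factors that start a later wave of expression. In the heart they are best known as the first transcriptional answer of cardiomyocytes and stromal cells to hemodynamic load, hormones and injury.

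The study compared female large white pigs in 5 groups with 1 poly(A) RNA library per animal. The DOX group (n = 5) received doxorubicin and the MYO group (n = 5) Myocet, doxorubicin enclosed in liposomes, each at 60 mg/m2 in 3 cycles. Anterior LV wall of both was taken 3 months after the first injection, when these experiments were ended early for poor health. The RemoLV group (n = 3) had a percutaneous coronary occlusion of 90 min with reperfusion and gave posterior wall remote from the infarct at 6 months. The Hyper group (n = 3) carried a stent (an aortic one in the methods, a coronary one in the labels) that made an artificial aortic isthmus stenosis as the animal grew, and the Control group (n = 3) is called both sham-operated and untreated in the study. Both gave anterior wall at 6 months. Follow-up time differed between the cytostatic and the other groups, and was therefore not separable from treatment. In whole tissue, fewer cells of a type and less RNA per cell cannot be told apart. Total counts per library ranged from 9527710 to 20370209 (median 14527230), and levels are given as CPM (counts scaled to the library size) after TMM scaling, which corrects that size for composition.

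Names and tissue had to be checked before any group was compared. Each sample column of the authors' gene table is a monotone function of 1 count file (Spearman 1.0), but 8 of 19 columns bear the name of another group than that file. Columns named Control there match the RemoLV files and columns named RemoLV the Control files, and Myo1 and Dox5 have changed places. Groups below are those of the file labels, and the main comparisons are given with the table's names as well. For 1 group, several markers did not match the labelled tissue. In the 3 libraries labelled RemoLV, the ventricular light chain MYL2 was at 18.6 to 115 CPM and IRX4, a ventricular transcription factor, at 0 to 0.178 CPM, whereas the lowest levels in the other 16 libraries were 8976 CPM for MYL2 and 8.38 CPM for IRX4. Of the other ventricular markers, HEY2 was at 2.54 to 4.99 CPM in RemoLV (at least 46.5 CPM elsewhere). MYH7 (22349 to 25986 CPM) and MYL3 (2058 to 3030 CPM) were lower there but not absent, with at least 28970 and 4460 CPM elsewhere. The atrial light chain MYL4 was at 6029 to 8130 CPM in RemoLV and at most 21.9 CPM in every other library. Every comparison with RemoLV therefore compares libraries of unlike marker content, and what this contributes to a member's difference was not tested. Of the atrial light chains, MYL7 was also at 1080 to 2379 CPM in DOX and 737 to 1194 CPM in MYO, against 59.1 to 111 CPM in Control (172 to 1229 CPM in Hyper). It was called higher than in Control in both (4.03 ± 0.53 in DOX and 3.51 ± 0.52 in MYO), as was MYL4 (2.28 ± 0.60 and 2.39 ± 0.60). These are 2 of the 5 atrial markers tested, and the other 3 (GJA5, NR2F2, SLN) were not called in either, so that the median over the list was -0.11 in DOX and -0.08 in MYO. Of the 5 ventricular markers, 1 was called higher than in Control and 0 lower, in DOX and in MYO alike. IRX4 was at 21.2 to 27.7 CPM in DOX and 19.3 to 27.6 CPM in MYO, against 9.26 to 13.1 CPM in Control. The part of these markers in the DOX and MYO values below was not tested either.

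A CArG box was found in 3 members (FOS, IER2, NR4A1) within 1000 bases upstream of the gene start in RefSeq. It is the DNA element bound by serum response factor (SRF), which drives immediate-early transcription with its partners after a stimulus. The stretches are shown because the CArG box is the regulatory element for which this class of genes is known. They are RefSeq sequence of the Sscrofa11.1 build, read 5′ to 3′ on the strand of the gene, with the CArG box in capitals:
FOS: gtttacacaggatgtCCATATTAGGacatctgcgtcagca
IER2: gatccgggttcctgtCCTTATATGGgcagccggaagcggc
NR4A1: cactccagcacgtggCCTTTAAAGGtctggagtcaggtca
The FOS stretch lies at chr7:98449037-98449076 on the plus strand, with the first base of the box 456 bases upstream. That of IER2 lies at chr2:65912676-65912715 on the minus strand, 209 bases upstream. That of NR4A1, which RefSeq lists as a pseudogene, lies at chr5:17402244-17402283 on the plus strand. The same motif occurs in 5.79% of 19566 such windows. The AP-1 site TGANTCA, searched on both strands, was found upstream of KLF4 and JUNB and in 23.3% of all windows, and the cyclic AMP response element TGACGTCA in 0 members and 2.40% of windows. Its shorter form TGACG, on either strand, was upstream of 5 members (FOS, JUN, EGR1, IER2, KLF4) and in 43.5% of windows, and the EGR site upstream of EGR1 alone and in 9.23%. Window length was set after a shorter window had been tried, and an annotated start need not be the start of transcription. These matches describe letters only.

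One library stood apart from all others. DOX1 had the highest CPM of the 19 libraries in 10 of 10 members, a place it held in 8.27% of the 13552 genes tested. Its ratio to the next highest library was 104 for FOSB, 26.5 for ATF3, 12.2 for FOS, 8.81 for NR4A1, 7.08 for EGR1 and 5.74 for MYC. JUNB (1.82), IER2 (1.70), JUN (1.43) and KLF4 (1.30) exceeded the next library by much less. Since values with and without DOX1 were part of how the list was set up, the height of DOX1 is described here without a test. Its total of 15975201 counts lay within the range of the others, and its ventricular markers summed to 54357 CPM, against 44968 to 74544 CPM in the other libraries outside RemoLV.

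**Figure D1:**
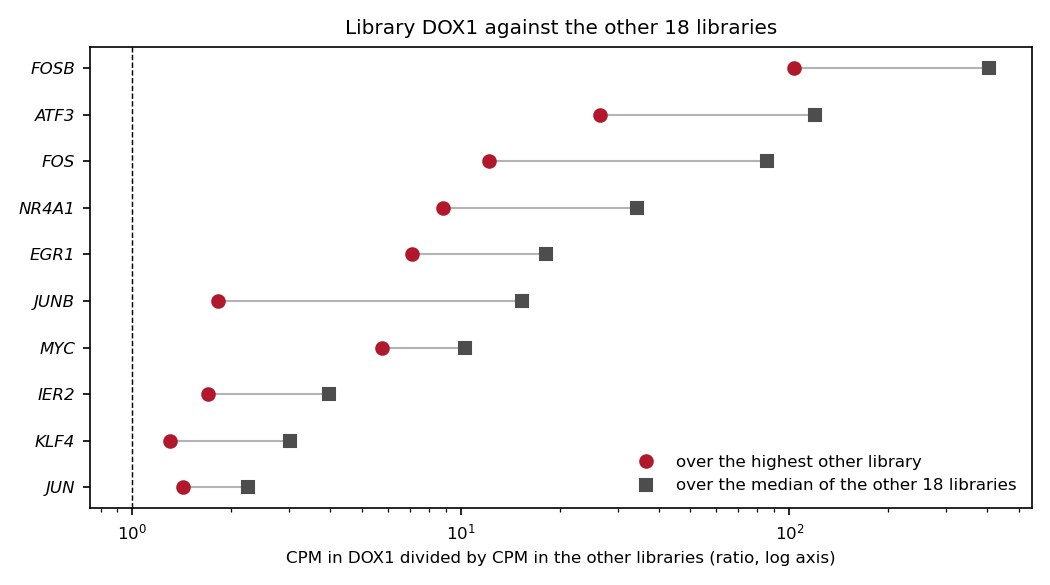
CPM of each member in library DOX1 divided by the highest of the other 18 libraries (circles) and by their median (squares), on a log axis with the dashed line at a ratio of 1. All 10 members lie to the right of the line, from 1.30 for KLF4 to 104 for FOSB over the highest other library.

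FOS (chr7:98449508-98451971, Sscrofa11.1) forms AP-1 dimers with JUN proteins and is the classical immediate-early gene. Its level was 597 CPM in DOX1 and 14.3, 3.67, 3.67 and 4.87 CPM in DOX2 to DOX5. MYO1 to MYO5 had 8.95, 2.42, 3.74, 34.1 and 7.87 CPM, RemoLV1 to RemoLV3 19.1, 6.88 and 3.39 CPM, Hyper1 to Hyper3 22.9, 2.78 and 7.11 CPM, and Control1 to Control3 49.0, 4.87 and 29.9 CPM. Without DOX1, the highest FOS levels of the series were therefore in Control1, MYO4 and Control3. The DOX mean of 125 ± 264 CPM (SD, n = 5) became 6.63 ± 5.16 CPM (n = 4) without DOX1. The log2 fold change of DOX against Control was 2.17 ± 1.47 (SE; adjusted p = 0.247, quasi-likelihood test of edgeR, Benjamini-Hochberg adjustment over all genes tested) and, without DOX1, -2.10 ± 0.88 (adjusted p = 0.0645). Neither passed the threshold of an adjusted p of 0.05.

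FOSB (chr6:51836780-51844531), a relative of FOS, was almost silent outside 1 library. It had 149 CPM (2392 counts) in DOX1, against 1.44, 0.333, 0.489 and 0.252 CPM in the other DOX libraries and 0.0705 to 0.475 CPM in MYO. RemoLV (0 to 0.915 CPM), Hyper (0.0753 to 0.550 CPM) and Control (0.178 to 1.12 CPM) covered the same low range, and the largest count outside DOX1 was 17. The count of 0 in RemoLV3 allows a level of up to 0.267 CPM (3 counts, counting error only). FOSB was called higher in DOX than in Control with all libraries (log2 fold change 5.55 ± 1.85, adjusted p = 0.0227), and without DOX1 the difference was -0.10 ± 0.78 (adjusted p = 0.933). The call was also lost without Control1 (adjusted p = 0.0570), Control2 (0.0667) or Control3 (0.0774), at log2 fold changes of 6.14, 5.06 and 5.62, and in the fit of only the groups compared (5.56, adjusted p = 0.11). DESeq2 gave FOSB no adjusted p.

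JUN (chr6:153686425-153687635), the partner that FOS proteins need to bind DNA, differed little between libraries. DOX1 to DOX5 had 412, 235, 258, 248 and 183 CPM, and MYO1 to MYO5 183, 144, 182, 265 and 235 CPM. RemoLV had 111, 152 and 133 CPM, Hyper 288, 218 and 163 CPM, and Control 179, 199 and 141 CPM. All DOX libraries but DOX5 exceeded the highest Control library. It was called higher in DOX than in Control (0.63 ± 0.24, adjusted p = 0.0451). The difference was 0.40 ± 0.21 (adjusted p = 0.128) without DOX1 and also lost its call without DOX3 (0.0598), DOX4 (0.0547), Control1 (0.0889) or Control3 (0.189), with log2 fold changes from 0.40 to 0.74 over all left-out libraries. It was also lost with RLE scaling (0.0514), with the replicate block (0.0830) and in the fit of only the groups compared (0.0731).

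JUNB (chr2:66214086-66219435), a JUN relative that can also restrain AP-1, showed a second pattern, in which Control was split. DOX1 to DOX5 had 142, 15.0, 10.1, 9.23 and 7.48 CPM, and MYO1 to MYO5 9.27, 7.27, 11.6, 19.4 and 11.3 CPM. RemoLV had 7.11, 5.98 and 7.13 CPM, Hyper 15.6, 5.04 and 8.18 CPM, and Control 77.9, 5.11 and 58.3 CPM. Control1 and Control3 thus lay above every library but DOX1, while Control2 lay among the lowest. Without DOX1, JUNB was called lower than in Control in DOX (-2.18 ± 0.56, adjusted p = 0.00517), in MYO (-2.01 ± 0.52, adjusted p = 0.00489) and in RemoLV (-2.80 ± 0.64, adjusted p = 0.00163). The DOX and RemoLV calls held with each further library left out, whereas that of MYO did not hold without Control1 (-1.45, adjusted p = 0.0509). With DOX1 in the fit only RemoLV was called (-2.80 ± 1.03, adjusted p = 0.0322), and that call was lost without Control1 (0.111), Control3 (0.0756), RemoLV1 (0.0777), RemoLV2 (0.0870) or RemoLV3 (0.0760). The spread is estimated over all groups, so leaving out DOX1 also changes the standard errors of comparisons that do not contain it.

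ATF3 (chr9:130772259-130829678), a stress-induced factor of the ATF/CREB family, was counted 35443 times in DOX1. DOX1 to DOX5 had 2212, 83.4, 23.6, 18.5 and 8.99 CPM, MYO1 to MYO5 43.4, 18.5, 23.2, 25.4 and 41.6 CPM. RemoLV had 5.07, 6.03 and 4.64 CPM, Hyper 13.2, 4.29 and 5.83 CPM, and Control 29.2, 4.39 and 45.8 CPM. All 5 MYO libraries and 4 of 5 DOX libraries lay above the highest Hyper library, and only DOX5 overlapped with it. Against Hyper, DOX and MYO together were called higher with DOX1 (3.94 ± 1.45, adjusted p = 0.0449) and without it (2.02 ± 0.66, adjusted p = 0.0263). DESeq2 gave ATF3 no adjusted p, and the fit of only the groups compared did not call it (3.94, adjusted p = 0.0665). In the fit with DOX1 this call was lost without any 1 of the 5 MYO libraries (adjusted p = 0.0505 to 0.0573) or of Hyper1 (0.105), Hyper2 (0.140) and Hyper3 (0.117), at log2 fold changes from 3.65 to 4.55. In the fit without DOX1 it was lost without Hyper2 (1.73, adjusted p = 0.111) or Hyper3 (1.85, adjusted p = 0.0863). DOX was called higher than Control only while DOX1 was present (4.15 ± 1.48, adjusted p = 0.0314, against 0.33 ± 0.65, adjusted p = 0.712), and also not without Control1 (0.0840), Control2 (0.0875) or Control3 (0.0649), with the replicate block (2.95, adjusted p = 0.116) or in the fit of only the groups compared (4.17, adjusted p = 0.132).

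EGR1 (chr2:140440829-140445302), a zinc-finger factor induced by growth factors and stretch, was called by edgeR in no comparison, with or without DOX1 and under either set of names. It had 564 CPM in DOX1, 17.3 to 70.3 CPM in the other DOX libraries, 19.1 to 79.6 CPM in MYO, 13.1 to 33.3 CPM in RemoLV, 20.4 to 61.7 CPM in Hyper and 30.5 to 50.1 CPM in Control. All groups overlapped. The DOX difference from Control was 1.91 ± 0.93 (adjusted p = 0.108) with DOX1 and -0.14 ± 0.51 (adjusted p = 0.843) without it.

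NR4A1 (chr5:17403088-17407918), an orphan nuclear receptor of the Nur77 type, had 1503, 171, 46.2, 33.2 and 62.5 CPM in DOX1 to DOX5 and 59.9, 39.1, 58.5, 85.4 and 60.9 CPM in MYO1 to MYO5. RemoLV had 13.9, 15.1 and 15.1 CPM, Hyper 28.0, 21.1 and 41.2 CPM, and Control 116, 27.3 and 116 CPM. The 3 RemoLV libraries were nearly equal and lay below every other library of the series. NR4A1 was called lower in RemoLV than in Control without DOX1 (-2.55 ± 0.55, adjusted p = 0.00111), and this held with each further library left out, but with DOX1 in the edgeR fit of all groups it was not called (-2.55 ± 1.07, adjusted p = 0.0568). With DOX1 among the libraries, DESeq2 called it lower (-2.57, adjusted p = 0.0311), as did the fit of only the groups compared (-2.54, adjusted p = 0.00580). Against Hyper, DOX and MYO together differed by 2.30 ± 0.94 (adjusted p = 0.0669) with DOX1 and 1.18 ± 0.46 (adjusted p = 0.0555) without it, above the threshold both times with edgeR. It was called higher by DESeq2 (2.30, adjusted p = 0.0219), and by edgeR when DOX3, DOX4 or DOX5 was left out with DOX1 in the fit, or DOX3, DOX4 or MYO2 without it (adjusted p = 0.0302 to 0.0499).

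KLF4 (chr1:248604817-248609574), a zinc-finger factor known from smooth muscle phenotype and endothelium, had 94.6, 41.3, 29.7, 22.3 and 21.3 CPM in DOX1 to DOX5 and 28.8, 29.4, 44.3, 52.1 and 33.0 CPM in MYO1 to MYO5. RemoLV had 15.7, 19.2 and 18.6 CPM, Hyper 52.1, 29.4 and 41.2 CPM, and Control 64.9, 39.8 and 72.7 CPM. All RemoLV libraries lay below every other library. KLF4 fell in RemoLV against Control with DOX1 (-1.73 ± 0.44, adjusted p = 0.00387) and without it (-1.72 ± 0.29, adjusted p = 0.000138), and in both fits the call held with each of the 6 libraries of these groups left out in turn. Without DOX1 it was also called lower in DOX (-1.06 ± 0.26, adjusted p = 0.00397), which held with each further library left out. The lower level in MYO (-0.67 ± 0.25, adjusted p = 0.0354) was lost without MYO1 (0.0755), MYO2 (0.0761), MYO5 (0.0659), Control1 (0.109) or Control3 (0.192).

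MYC (chr4:12455141-12460360), a growth-promoting factor that binds DNA with MAX, had 128, 12.8, 10.5, 14.2 and 6.47 CPM in DOX1 to DOX5 and 8.79, 11.2, 12.4, 16.1 and 15.4 CPM in MYO1 to MYO5. RemoLV had 3.94, 7.22 and 5.08 CPM, Hyper 9.62, 14.1 and 13.9 CPM, and Control 22.3, 12.5 and 19.7 CPM. Again all RemoLV libraries lay below all Control libraries. The direction of DOX against Control turned with DOX1, from 0.93 ± 0.70 (adjusted p = 0.297) to a call of -0.73 ± 0.27 (adjusted p = 0.0385) without it, and that call was lost without DOX3 (0.0727), DOX5 (0.102), Control1 (0.160) or Control3 (0.117). RemoLV was called lower without DOX1 (-1.73 ± 0.31, adjusted p = 0.000218), with each further library left out as well, but not with DOX1 in the fit (-1.73 ± 0.82, adjusted p = 0.0891).

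IER2 (chr2:65909638-65912491), a small nuclear protein of the early response, was called by edgeR in no comparison of the file-label groups, with or without DOX1, unless MYO2 was left out as well as DOX1 (0.82 in MYO against Control and 0.74 in DOX and MYO against Hyper). DESeq2 called it higher in DOX and MYO against Hyper (0.97), and with the names of the authors' table it was called higher in DOX (1.51) and MYO (1.24) against Control. It had 26.5 CPM in DOX1, 6.87 to 8.15 CPM in DOX2 to DOX5, 4.99 to 15.6 CPM in MYO, 3.10 to 4.79 CPM in RemoLV, 4.47 to 6.50 CPM in Hyper and 3.86 to 7.17 CPM in Control. The 4 remaining DOX libraries lay close together, at 7.47 ± 0.68 CPM (SD, n = 4). The difference of DOX and MYO from Hyper was 0.98 ± 0.41 (adjusted p = 0.0724) with DOX1 and 0.66 ± 0.27 (adjusted p = 0.0697) without it.

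**Figure D2:**
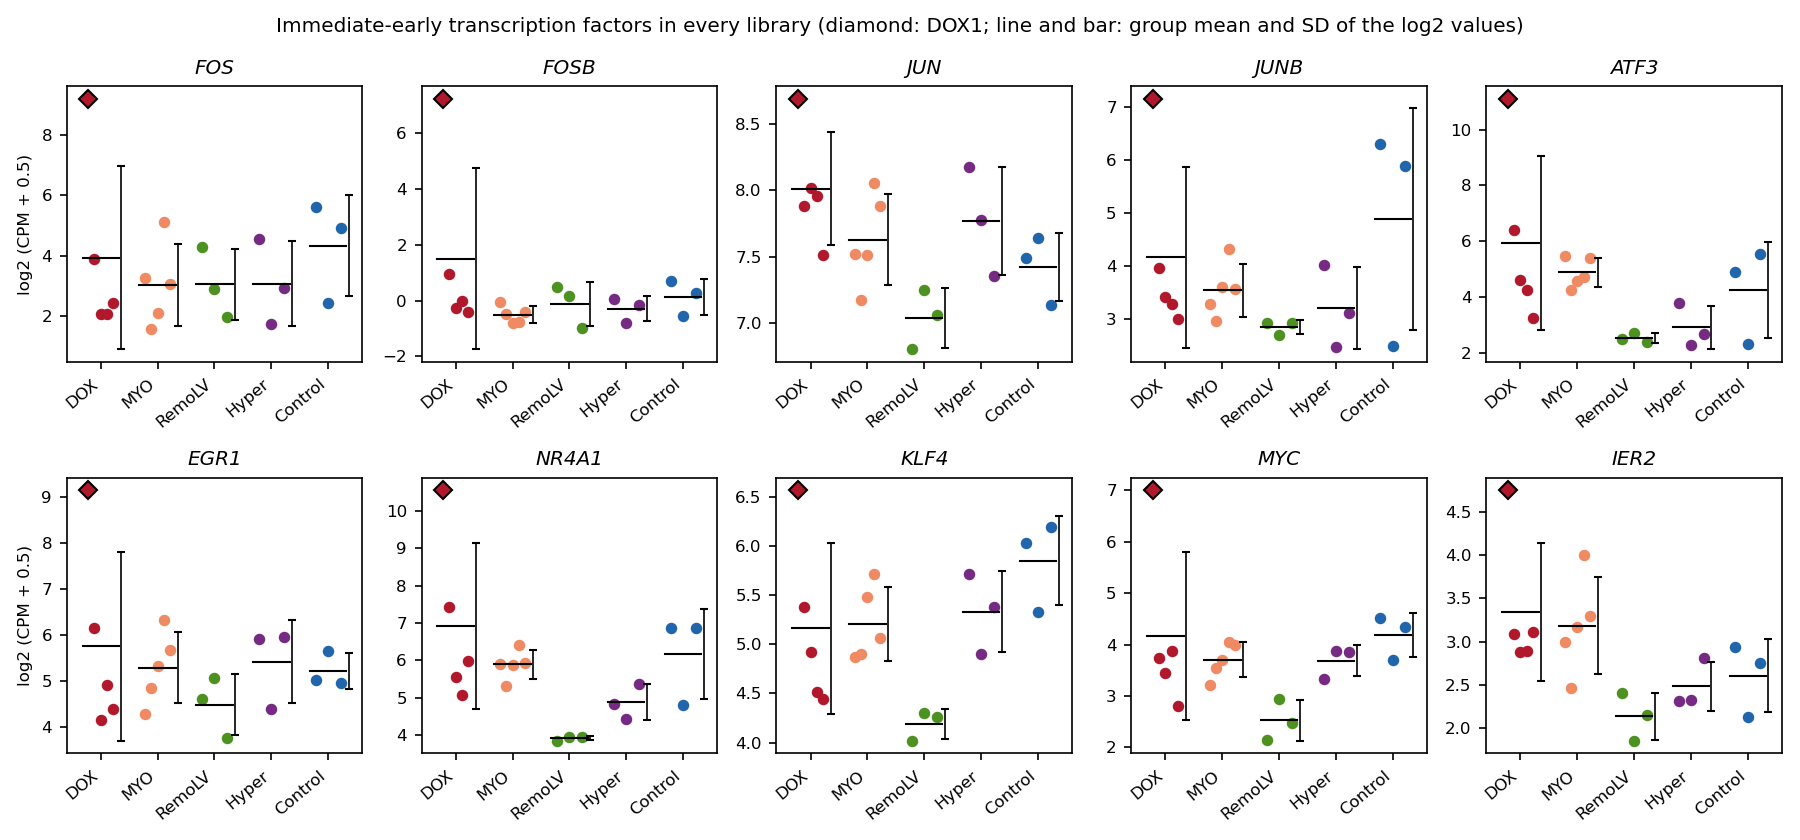
Level of each member, as log2 (CPM + 0.5), in every library of the 5 groups, with the group mean and SD of the log2 values and DOX1 as a diamond. DOX1 is the highest point of every panel, Control1 and Control3 stand above Control2 for JUNB (77.9 and 58.3 against 5.11 CPM), and the RemoLV points of NR4A1, MYC and KLF4 lie below all Control points.

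All comparisons came from 1 model of the 5 groups, and the comparisons with Control share its 3 libraries. In DOX against Control, as in MYO against Control, treatment and follow-up time (3 against 6 months) cannot be told apart. In DOX, 3 of 10 members were higher (FOSB, JUN, ATF3) and 0 lower, beside 21.0% of all tested genes higher and 21.1% lower. Without DOX1, 0 were higher and 3 lower (JUNB, MYC, KLF4), beside 20.0% and 21.6% of genes, and all 3 directions turn with the names of the authors' table. Beside these stand, without DOX1, 2 of 6 fibroblast markers higher (COL1A1 1.07 ± 0.27, COL3A1 0.98 ± 0.26), 3 of 5 macrophage markers higher and 1 lower, 2 of 6 endothelial markers higher and 2 lower, and 3 of 3 red blood cell markers (median -2.95), 1 of 5 neutrophil markers and 1 of 4 heat shock genes (HSPA8 -0.92) lower. The median log2 fold change of the members moved from 1.45 to -0.15, while that of all genes was 0.03 and 0.01. In MYO against Control 0 members were called, beside 20.7% of genes higher and 21.7% lower. Without DOX1 2 were lower (JUNB, KLF4) and 0 higher, beside 23.1% and 20.9% of genes, and the median over members was -0.51 with and -0.52 without DOX1. Here, without DOX1, 2 of 6 fibroblast markers were higher and 1 lower, 1 of 5 macrophage and 1 of 6 endothelial markers were higher and 1 of each lower, and 3 of 5 neutrophil markers, 1 of 3 red blood cell markers and 2 of 4 heat shock genes (HSPA8 -0.97, DNAJB1 -0.76) were lower. The part of these markers in the members' values was not tested in either comparison.

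RemoLV against Control gave 2 members lower (JUNB, KLF4) and 0 higher, beside 24.0% of genes lower and 23.1% higher. Without DOX1 5 members were lower (JUNB, ATF3, NR4A1, MYC, KLF4) and 0 higher, beside 24.8% and 24.0%. The groups did not overlap for 3 members (NR4A1, MYC, KLF4), all lower in RemoLV, beside 25.7% of genes that separated in this direction and 26.4% in the other. The median over members was -1.61 in both fits, against 0.02 for all genes. ATF3 had 5.07, 6.03 and 4.64 CPM in RemoLV and overlapped with Control through Control2 alone, and its call (-2.32 ± 0.76, adjusted p = 0.0185) was lost without RemoLV1 (0.0539), RemoLV3 (0.0543) or Control3 (0.112). Beside these values stand the ventricular and atrial markers given above (5 of 5 ventricular lower and 5 of 5 atrial higher) and further lists, with the same counts of calls with and without DOX1. The 6 fibroblast markers summed to 8806 to 10071 CPM in RemoLV and 1329 to 5842 CPM elsewhere, with COL3A1 (2.23 ± 0.29), COL1A1 (1.94 ± 0.33) and DCN (0.97 ± 0.18) called higher than in Control. All 4 heat shock genes were called lower in RemoLV, with sums of 787 to 1117 CPM, as were 3 of 3 red blood cell markers (median -3.37) and 3 of 5 neutrophil markers (median -2.17). Of the macrophage markers 3 of 5 were higher (CD68, CSF1R, C1QA) and 1 lower (CD163), of the endothelial markers 2 of 6 were lower, and of the 4 smooth muscle markers none was called. The part of these in the members' values was not tested.

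Hyper against Control gave 0 members called, with and without DOX1. In this comparison the edgeR test called 0% of genes in either direction, although 2418 genes had an unadjusted p under 0.05 (2571 without DOX1), and DESeq2 called 104 genes higher and 207 lower, no member among them. The 0% rested on single libraries, with 1285 genes higher and 1253 lower without Control2 and 330 and 443 without Hyper1. JUNB came nearest, at -2.28 ± 0.62 (adjusted p = 0.104) without DOX1, and was called lower without Control2 (-2.82, adjusted p = 0.0469 with DOX1 in the fit and 0.000136 without it) and, without DOX1, also without Hyper1 (-2.82, adjusted p = 0.0355). Without both DOX1 and Control2, ATF3 (-2.27, adjusted p = 0.0221) and NR4A1 (-1.94, adjusted p = 0.00866) were called lower too. In that fit 1491 of 13752 genes were higher and 1415 lower. Without DOX1 and Hyper1 these numbers were 412 and 529 of 13756. By Spearman's rho over the genes of the authors' table, Control2 was most like Hyper1, and Hyper1 most like Control2 (0.992). Control1 and Control3 were most like each other (0.992), and what this contributes was not tested. DOX against MYO, which asks whether the liposomal form acts differently, gave 0 members called with edgeR and 0% of genes in either direction, with 960 genes at an unadjusted p under 0.05 (681 without DOX1), and DESeq2 called 0 genes higher and 2 lower. All 10 members overlapped between these groups, where 0.694% of genes separated with DOX higher and 0.775% with DOX lower. The median over members was 1.68 with DOX1 and -0.19 without it, and the members farthest apart with DOX1, FOSB (7.08 ± 1.73) and ATF3 (3.95 ± 1.18), both had an adjusted p of 0.692. In DOX and MYO against Hyper, 1 member was higher (ATF3) and 0 lower in both fits, beside 15.8% of genes higher and 16.9% lower, or 15.2% and 17.8% without DOX1. Follow-up time and treatment cannot be told apart in it.

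**Figure D3:**
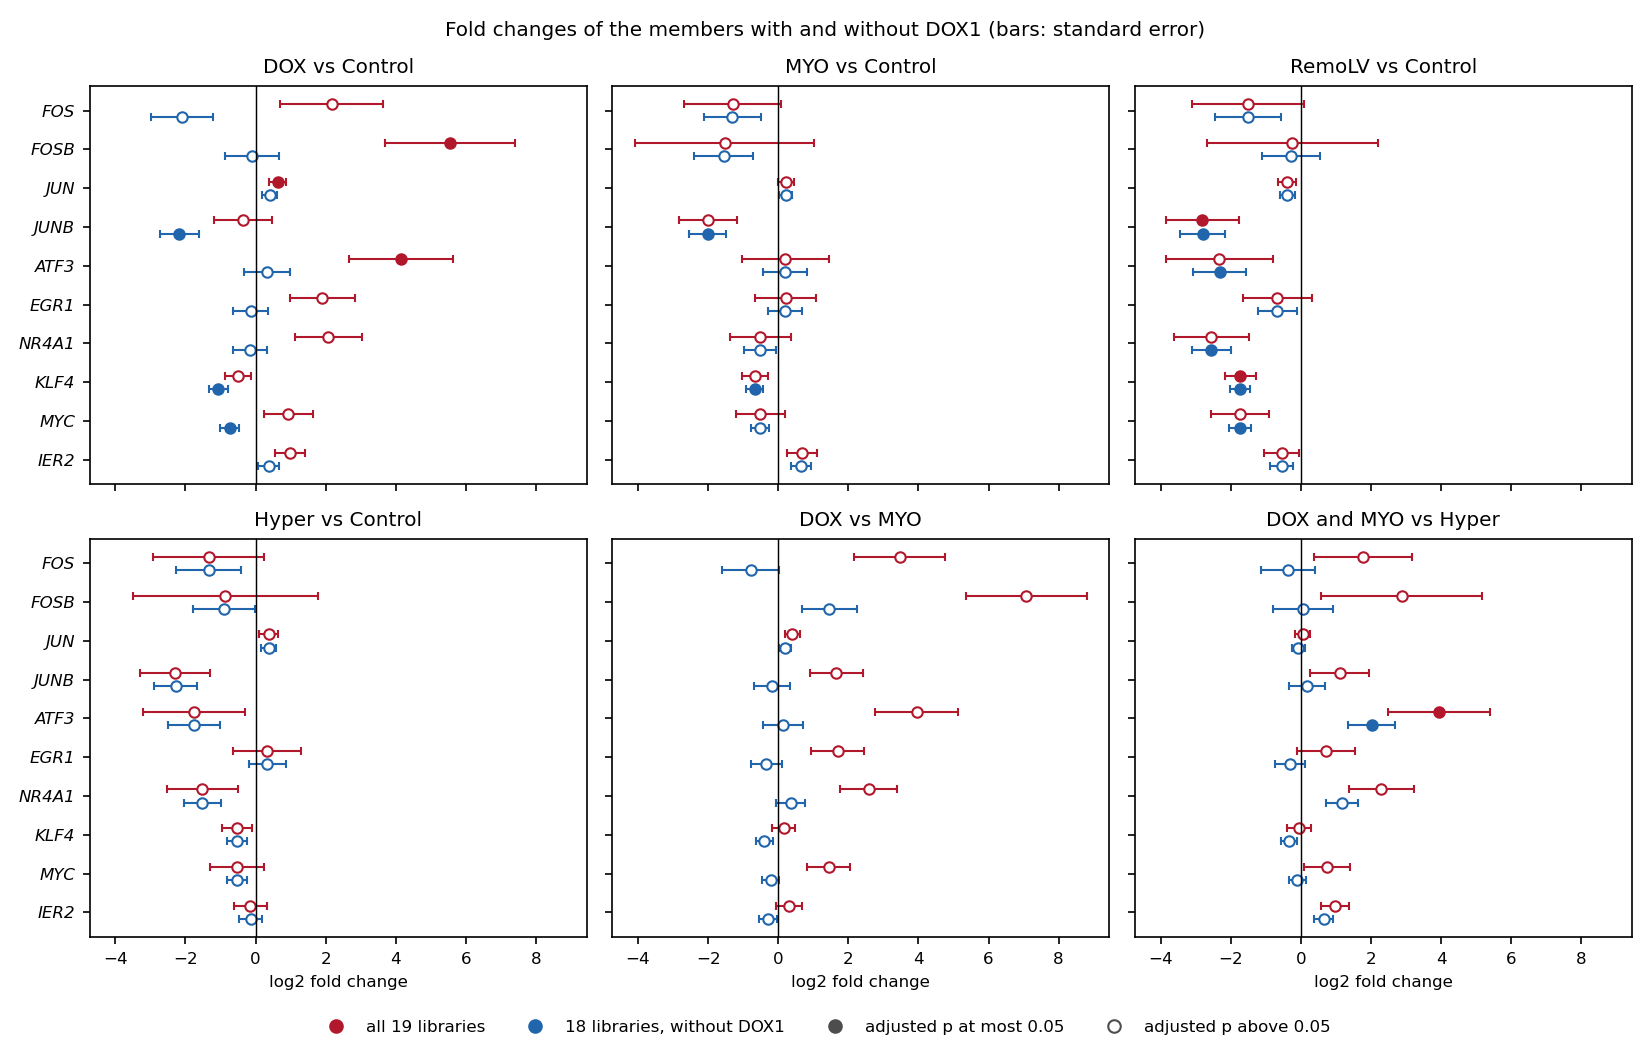
Log2 fold change of each member (bars, standard error) in the 6 comparisons, fitted with all 19 libraries (red) and without DOX1 (blue), where filled points have an adjusted p of at most 0.05. The red and blue points part in the comparisons that contain DOX (for FOSB in DOX against Control 5.55 and -0.10), and elsewhere keep their place while the blue bars are shorter.

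The names of the authors' table turned several of these directions. With them, JUNB (2.80, adjusted p = 0.0307) and KLF4 (1.73, adjusted p = 0.00352) were higher in RemoLV than in Control, since both groups exchange libraries. The libraries with atrial markers are then the Control group, so that they enter every comparison with Control. DOX against Control then had 7 members higher (FOSB, JUN, ATF3, IER2, NR4A1, MYC, KLF4) and 0 lower, beside 15.0% of all genes higher and 14.6% lower. Without DOX1 it had 5 higher (ATF3 2.98, NR4A1 2.38, MYC 1.07, IER2 0.88 and JUN 0.79) and 0 lower, beside 12.9% and 14.0%. All 3 members called lower in DOX without DOX1 changed sign under these names, with MYC called higher and JUNB (0.68, adjusted p = 0.424) and KLF4 (0.75, adjusted p = 0.0588) not called. Of the 2 called lower in MYO, KLF4 was called higher (1.00) and JUNB was at 0.74 (adjusted p = 0.353). With all libraries in the fit, FOSB, JUN and ATF3 in DOX against Control and ATF3 in DOX and MYO against Hyper (3.76, adjusted p = 0.0416 under the table's names) were called higher under both sets of names. Without DOX1, this held for ATF3 in DOX and MYO against Hyper alone. DOX and MYO enter that comparison together, and no Hyper library changes group.

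Within 4 of the groups 1 library held many of the highest or lowest places. MYO4 was the highest MYO library for 8 of 10 members (21.1% of all genes), Control2 the lowest Control library for 8 (40.6%), Hyper2 the lowest Hyper library for 7 (25.9%) and DOX5 the lowest DOX library for 6 (24.2%). In RemoLV the places were spread, with RemoLV1, RemoLV2 and RemoLV3 highest for 3, 5 and 2 members and lowest for 4, 2 and 4. After DOX1, the next highest of all libraries was DOX2 for 3 members (FOSB, ATF3, NR4A1), Control1 for 3 (FOS, JUNB, MYC), MYO4 for 2 (EGR1, IER2), Hyper1 for JUN and Control3 for KLF4. Across the 18 libraries without DOX1, Spearman's rho between members had a median of 0.422 over 45 pairs (range -0.075 to 0.841), and 0.509 with DOX1. The closest pairs without DOX1 were NR4A1 and ATF3 (0.841), JUNB and ATF3 (0.822) and JUNB and NR4A1 (0.792), whereas FOSB and JUN were at -0.075. These libraries share groups and depth, so the coefficients are descriptions.

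The genes most like the members were taken by Spearman's rho over 19 libraries among non-member genes with a symbol. Of the genes named here, only IER3, SGK1 and CSRNP1 belong to the lists of other early-response genes used below. The closest to NR4A1 was PLK3 (0.940), a stress-induced kinase, followed by RASSF1 (0.928) and SLC25A25 (0.911). To KLF4 it was IBTK (0.937), followed by SGK1 (0.932) and CSRNP1 (0.928), and to ATF3 DDX5 (0.918), followed by IER3 (0.911) and TPM4 (0.909). JUNB was most like ADAMTS4 (0.912), IER2 like CDC42EP2 (0.911), MYC like EIF4A1 (0.889), JUN like STXBP4 (0.860), FOSB like STMN1 (0.839), FOS like PTHLH (0.833) and EGR1 like HAPLN3 (0.782). Of the 3 closest genes of each member, all 3 were the same without DOX1 for FOSB, ATF3, IER2, NR4A1 and KLF4, 2 for FOS, JUN, EGR1 and MYC, and 1 for JUNB.

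The rest of the early-response program was examined with lists of related genes. DOX1 was the highest of 19 libraries for 14 of 19 other immediate-early transcription factors tested (13 of 18 without EGR3, which passed the low-count filter only through DOX1) and for 15 of 20 immediate-early effectors, which are the non-transcription-factor products of the response. It was highest for 8 of 13 phosphatases and feedback inhibitors of MAP kinases, and for 4 of 19 upstream kinases, 2 of 14 upstream DNA-binding factors and coactivators and 1 of 10 dimer partners and MYC network genes, beside 8.27% of all genes. NR4A3, the relative of NR4A1, was at 2363 CPM in DOX1 and 3.80 to 147 CPM elsewhere. DUSP5, an ERK phosphatase, was at 46.9 against at most 5.37 CPM, EGR3 at 7.18 against at most 0.933 CPM, and ERRFI1, a feedback inhibitor of the EGF receptor, at 182 against at most 25.3 CPM. The matricellular genes CCN1 (949 against at most 198 CPM) and CCN2 (1348 against at most 300 CPM) showed the same order. SRF, the factor known to bind CArG boxes, was at 237 CPM in DOX1 and 81.2 to 164 CPM elsewhere, and its binding was not measured. The other upstream DNA-binding factor highest in DOX1 was MEF2D (399 against at most 362 CPM). The rest of that list, ELK1 and CREB1 among them, was not highest there.

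Without DOX1, the other immediate-early transcription factors gave 3 genes higher and 8 lower of 18 tested in DOX against Control (median -0.45), 3 and 8 in MYO (-0.63), 0 and 11 in RemoLV (-0.77) and 0 and 0 in Hyper (-0.79). NFIL3, a basic leucine zipper repressor, was lower in DOX (-2.46 ± 0.41, adjusted p = 0.000212), MYO (-2.51 ± 0.38, adjusted p = 8.2e-05) and RemoLV (-3.52 ± 0.48, adjusted p = 1.87e-05). KLF2, a relative of KLF4 known from endothelium, went the other way in MYO (0.99 ± 0.17, adjusted p = 0.00024) and DOX (0.50 ± 0.17, adjusted p = 0.0275). With DOX1 in the fit, 4 were higher and 2 lower of 19 in DOX, 2 and 3 in MYO, 0 and 7 in RemoLV and 0 and 0 in Hyper. Of the effectors with DOX1 in the fit, 1 was higher and 1 lower of 20 in DOX, 0 and 4 in MYO, 0 and 8 in RemoLV and 0 and 0 in Hyper. Without DOX1, 0 rose and 9 of 20 fell in DOX, 1 and 9 in MYO, 1 and 13 in RemoLV and 0 and 0 in Hyper, among them SOCS3, an inhibitor of cytokine signaling, in DOX (-3.18 ± 0.66, adjusted p = 0.0012) and MYO (-3.04 ± 0.61, adjusted p = 0.000786). The shares of all genes called in these comparisons are those given above. With the names of the authors' table and without DOX1, these counts turn. The other transcription factors then gave 5 higher and 0 lower in DOX, 6 and 0 in MYO and 11 and 0 in RemoLV, and the effectors 5 and 1, 7 and 1 and 14 and 1, beside 12.9% of all genes higher and 14.0% lower in DOX, 14.7% and 15.6% in MYO and 24.8% and 24.2% in RemoLV. In Hyper the other transcription factors gave 4 higher and 0 lower and the effectors 6 and 1, beside 19.2% of all genes higher and 17.6% lower. NFIL3 was then higher in RemoLV (3.52) and not called in DOX (1.13) or MYO (0.94). KLF2 was higher in MYO (0.69) and not called in DOX (0.39), and SOCS3 was not called in DOX (0.12) or MYO (0.28).

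Kinases upstream of these genes were called about as often as genes in general. RPS6KA2, a ribosomal S6 kinase of the ERK pathway, was higher than in Control in DOX (1.66 ± 0.24), MYO (2.02 ± 0.25) and RemoLV (1.42 ± 0.26) with all libraries, while its relative RPS6KA3 was lower (-0.91 ± 0.14, -1.04 ± 0.14 and -1.15 ± 0.17), each with an adjusted p of at most 0.000291. In both fits the kinase list gave 4 genes lower of 19 in each of these comparisons, and 5, 3 and 4 genes higher with DOX1 or 3, 3 and 4 without it. Of all genes, 21.1%, 21.7% and 24.0% were lower and 21.0%, 20.7% and 23.1% higher with DOX1. The 13 phosphatases and feedback inhibitors gave 2 genes higher and 2 lower in DOX, 3 and 3 in MYO and 1 and 5 in RemoLV without DOX1, or 3 and 1, 2 and 3 and 1 and 3 with it. Among them, the feedback inhibitors SPRY1 (-0.68 and -0.72) and SPRED1 (-0.57 and -1.11) were lower in DOX and MYO without DOX1. DUSP5 was lower in RemoLV than in Control (-2.90 ± 0.56, adjusted p = 0.000455 without DOX1), and DUSP8 was higher in DOX (1.20 ± 0.28, adjusted p = 0.00274) and MYO (1.18 ± 0.27, adjusted p = 0.00228), both without DOX1. With the names of the authors' table, RPS6KA2 was not called in DOX (0.44) or MYO (0.42) and was lower in RemoLV (-1.42), and RPS6KA3 was not called in DOX (0.27) or MYO (0.08) and was higher in RemoLV (1.15). With these names and without DOX1, SPRY1 (-0.36 and -0.26) and SPRED1 (-0.05 and -0.50) were not called in DOX and MYO, DUSP5 was higher in RemoLV (2.90), and DUSP8 stayed higher in DOX (1.98) and MYO (1.70).

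Some other measures also set Control1 and Control3 apart from Control2, and some were high in DOX1. Of the members, EGR1 and JUN did not share this split, with Control2 the highest Control library (50.1 and 199 CPM). Summed over the 4 heat shock genes tested, Control1 and Control3 had 4077 and 4087 CPM and DOX1 3553 CPM, against 1495 CPM in Control2 and 787 to 2521 CPM in all remaining libraries. Summed red blood cell markers were 352 and 341 CPM in Control1 and Control3, 36.5 CPM in Control2 and 112 CPM in DOX1, with 8.49 to 197 CPM elsewhere. Control1 and Control3 also had the lowest TMM factors (0.735 and 0.696, against 0.834 to 1.18 in the other libraries). With raw library totals instead, MYC was at 16.4, 12.0 and 13.7 CPM in Control1 to Control3. DOX2 to DOX5 then had 14.3, 10.8, 16.0 and 6.88 CPM of MYC. KLF4 was at 47.7, 38.4 and 50.6 CPM in these Control libraries and 46.2, 30.8, 25.1 and 22.6 CPM in these DOX libraries. JUNB stayed split in Control, at 57.2, 4.93 and 40.6 CPM. No fit was run with raw totals. In DOX1 the 4 smooth muscle markers summed to 695 CPM, against 158 to 490 CPM elsewhere, with 3 of them highest there. DOX1 was highest in 0 of 5 macrophage, 0 of 5 neutrophil and 0 of 6 endothelial markers, and in 2 of 6 fibroblast markers (TCF21 and LUM). What these differences contribute to the members' levels was not tested.

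**Figure D4:**
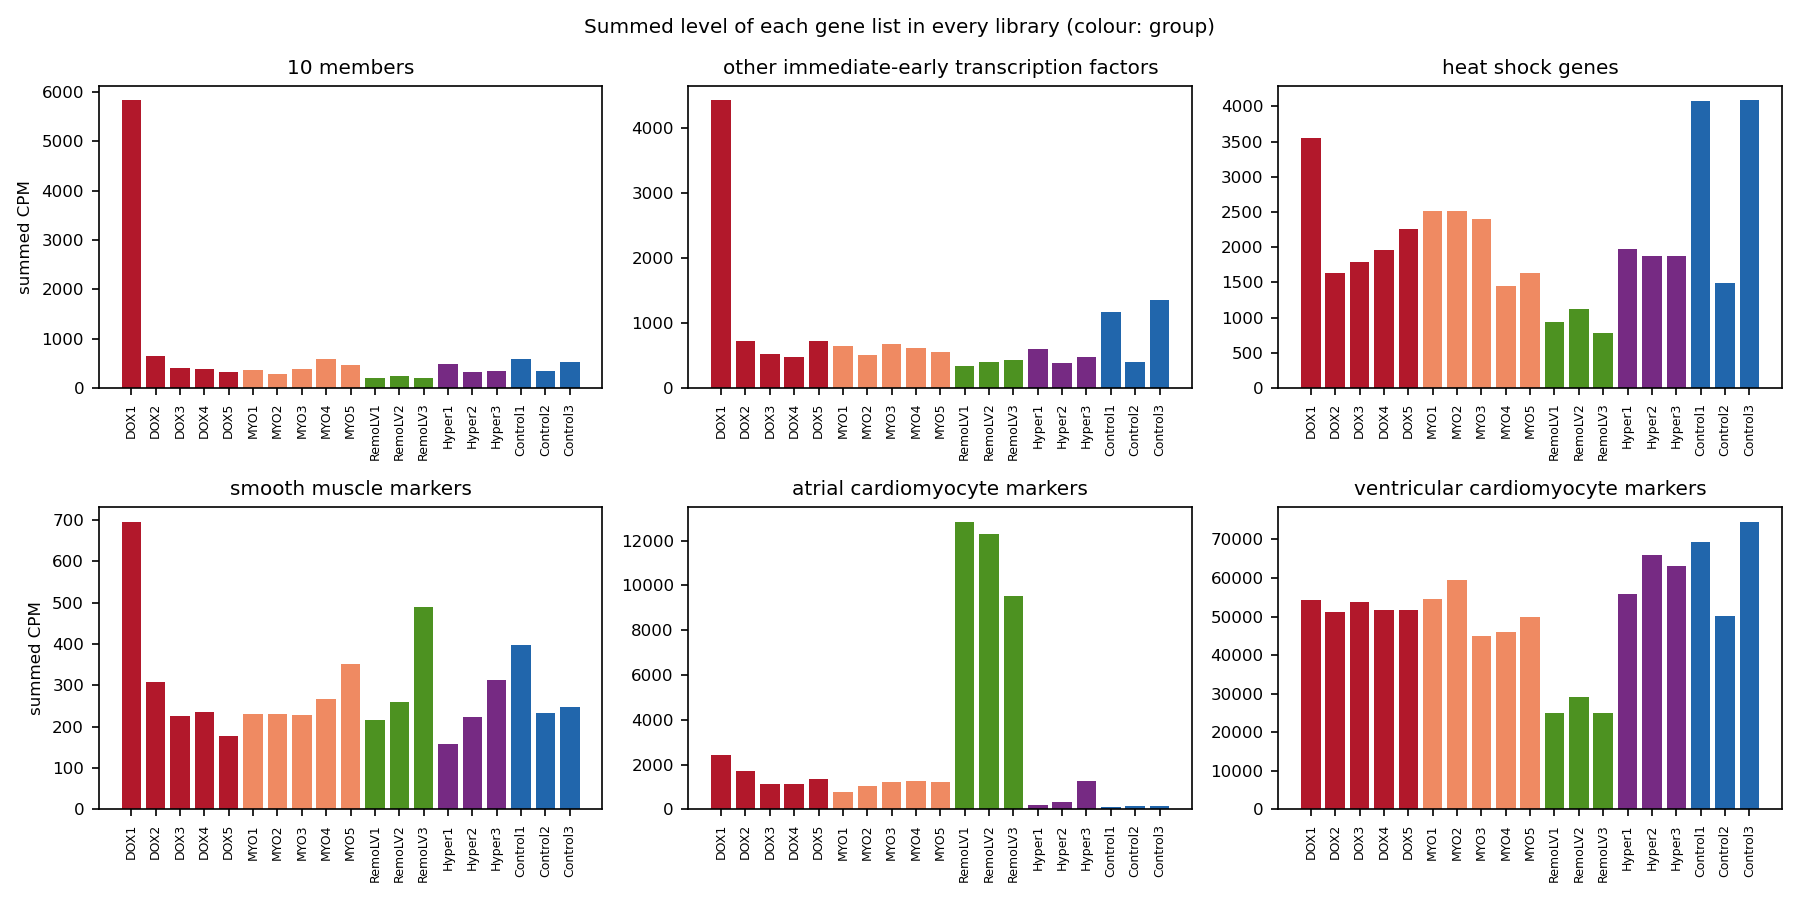
Summed CPM of the members and of 5 related gene lists in each of the 19 libraries, coloured by group. DOX1 exceeds all others for the members (5829 CPM, others 204 to 652) and the other early transcription factors, Control1 and Control3 have the highest heat shock sums, and RemoLV has the highest atrial and lowest ventricular sums.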

How the data were processed

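Read pairs of poly(A) libraries were placed on Sscrofa11.1 by the authors (STAR), strand-aware counting over Ensembl gene models followed (HTSeq 0.11.1), and the deposited files hold these raw counts for 19 libraries, 1 per pig. Their gene table holds, as deposited by the authors, log2-scale expression values, used here only to match its columns to the count files, and log2 fold changes with adjusted p-values of the authors' DESeq2 comparisons, which were not used. Libraries were grouped by file label. The members and gene lists were chosen with earlier results of these data known. In R 4.3.3, counts were filtered (filterByExpr, 13552 genes, 13520 without DOX1), scaled by TMM and tested with the edgeR 4.0.16 quasi-likelihood test in 1 model of all groups, with Benjamini-Hochberg adjustment over all genes tested. Calls need an adjusted p of at most 0.05, with no fold threshold. SE is the absolute log2 fold change divided by the root of the F statistic. Named genes were all members, and of each other list at most 3 called genes per direction and comparison with the smallest adjusted p. Genes named for their level in DOX1 alone and SRF were chosen after their values were seen. Alternatives were DESeq2 1.42.0, RLE scaling, other filters, the replicate block, only the groups compared, each library left out, the fit without DOX1 and the names of the authors' table. The last 2 together, and leaving out libraries in the fit without DOX1, were chosen after seeing the data. Replicate numbers of different groups did not pair libraries (correlations of deviations -0.261 to 0.28 over 32 pairs). The script was tested on simulated data. Intervals and floors cover counting error only.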

Additional observations from a re-analysis of the deposited data

Results flagged for a closer look

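DOX1 lay far from the other DOX libraries for FOS (597 CPM), FOSB (149 CPM), JUNB (142 CPM), EGR1 (564 CPM), ATF3 (2212 CPM), IER2 (26.5 CPM), NR4A1 (1503 CPM), MYC (128 CPM) and KLF4 (94.6 CPM), and less so for JUN. Since values with and without DOX1 were part of how the members were followed, and all 9 values come from 1 animal, they are a description and were not set against chance. Among the 5 MYO libraries, FOS in MYO4 stood apart from the others at 34.1 CPM. It was the only such case of the 10 members in MYO. The flag was set on CPM rather than log2 values and the members share libraries, so it was not set against a chance rate. Between groups, ATF3 differed in DOX and MYO against Hyper, with a log2 fold change of 3.94 (adjusted p = 0.0449, edgeR), or 2.02 (adjusted p = 0.0263) without DOX1. With DOX1 in the fit the call was lost when any 1 of 8 libraries (5 MYO, 3 Hyper) was left out and in the fit of only the groups compared (adjusted p = 0.0665), and without DOX1 it was lost without Hyper2 or Hyper3.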

How the results depend on the processing

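With 3 to 5 libraries per group, small differences could not be detected, and FOSB was close to its counting floor outside DOX1. Over the members' log2 fold changes and the alternatives run, 1333 values kept their side of the threshold, of which 210, called in neither fit, turned direction. A further 86 passed it newly, 52 no longer passed it and 28 turned direction with a call in 1 or both fits. The fit with no filter changed no call, and that with 10 counts in every library changed none among the 9 members it tested, which did not include FOSB. Member CPM moved by up to 0.523 on the log2 scale with raw library totals. With them, 4 group means moved by 1 SD or more and 46 did not. With DESeq2 size factors the CPM moved by at most 0.0393, and 50 group means stayed within 1 SD. The cause of the changes below was not tested. In DOX against Control, the number of members higher was 1 with DESeq2, which gave FOSB, ATF3 and MYC no adjusted p, 1 with the replicate block, 0 in the fit of only the groups compared and 0 without DOX1, where 3 were lower and 5 members turned direction (FOS -2.10, FOSB -0.10, EGR1 -0.14, NR4A1 -0.16 and MYC -0.73). Of all genes, 2857 of 13536, 2370 of 13552, 2176 of 12931 and 2706 of 13520 were higher in these 4 fits, in this order. The fit without DOX1 had 2927 genes lower. Without DOX1, 6 of 10 members turned direction in DOX against MYO and 4 in DOX and MYO against Hyper, none of them called. With the replicate block, JUN (0.59) and ATF3 (2.95) lost their calls, although replicate numbers did not pair the libraries. RLE scaling ended the JUN call (0.60, adjusted p = 0.0514). In MYO against Control, 2 members were lower without DOX1 and 2 in the fit of only the groups compared. The genes lower in these fits were 3125 of 13520 and 2792 of 12808. In RemoLV against Control, 5 members were lower in each of these 2 fits, beside 3348 of 13520 and 2626 of 13054 genes. In DOX and MYO against Hyper, 2 members were higher with DESeq2 (IER2, NR4A1) and 0 in the fit of only the groups compared. The genes higher in these fits were 2334 of 13536 and 2250 of 13130.

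With the names of the authors' table, members higher numbered 7 in DOX (5 without DOX1, a combination chosen after seeing the data), 1 in MYO (6), 2 in RemoLV (5) and 2 in Hyper (3), each against Control, beside 15.0% of all genes higher in DOX (12.9% without DOX1), 14.8% in MYO (14.7%), 24.0% in RemoLV (24.8%) and 18.7% in Hyper (19.2%), and 0 were lower in RemoLV with or without DOX1. These names turned KLF4 in DOX (1.28), KLF4 in Hyper (1.20, and 1.20 without DOX1), and JUNB (2.80, and 2.80 without DOX1) and KLF4 (1.73, and 1.72 without DOX1) in RemoLV. Without DOX1 they also turned NR4A1 (2.04), MYC (1.16) and KLF4 (1.00) in MYO, MYC in Hyper (1.20), and ATF3 (2.32), NR4A1 (2.55) and MYC (1.73) in RemoLV. Against the fit without DOX1 under file labels, they further turned MYC (1.07), JUNB (0.68) and KLF4 (0.75) in DOX and JUNB (0.74) in MYO, all called lower there.

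Leaving out 1 library at a time, with and without DOX1 in the fit, members higher in DOX ranged from 0 to 3 and lower from 0 to 4, higher in MYO from 0 to 1 and lower from 0 to 3, lower in RemoLV from 1 to 5, lower in Hyper from 0 to 3, and higher in DOX and MYO against Hyper from 0 to 3. Over the same fits, of 13460 to 13802 genes tested, 1721 to 3193 were higher and 1987 to 3213 lower in DOX. In MYO these numbers were 1826 to 3283 and 2056 to 3354. In RemoLV 2606 to 3695 genes were lower, in Hyper 0 to 1415, and in DOX and MYO against Hyper 1073 to 2181 were higher. The log2 fold change of DOX against Control ranged from -2.79 to 2.85 for FOS and from -0.57 to 6.14 for FOSB. It ranged from -0.64 to 4.82 for ATF3 and from -0.94 to 1.20 for MYC.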
